A study of Mus musculus with 576 samples.

Results

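Proliferating mesenchymal cells of the embryonic mouse pancreas were selected on their levels of 2 genes, Top2a and Mki67, and numbered 77 of 378 mesenchymal cells, in a set of 576 single cells of which 549 passed the filters. Levels are in CPM, the count of a gene as a share of all counts of a cell or of a group of cells, scaled to 1e6. A cell was kept with at least 1000 genes above 0 and at least 100000 counts, and was taken as mesenchymal when Epcam, an epithelial adhesion molecule, and Upk3b, a mesothelial gene, were both under 20 CPM and Vim, the intermediate filament protein vimentin, was at 100 CPM or more. Members, called cycling cells from here on, held Top2a at 100 CPM or more and Mki67 at 50 CPM or more. They were set against 207 resting mesenchymal cells with both genes under 10 CPM, and 94 mesenchymal cells fell between these limits. Because the members were chosen by 2 genes of these same cells, each difference between cycling and resting cells is given as a description and without a test.

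Dorsal pancreata were taken from mouse embryos at E12.5, and their GFP+ cells were sorted by FACS and profiled one by one with Smart-seq2, a method that reads whole transcripts. Members came from 3 mouse lines on a C57BL/6J background. In the first, Nkx2.5-Cre;R26mTmG, and the second, named Nkx3.2-Cre;R26mTmG, a Cre recombinase knocked into Nkx2.5 or Nkx3.2, genes of transcription factors of the gut and splenic mesenchyme, switches a membrane reporter to GFP, so GFP marks every descendant of a cell that once expressed the driver, whether or not it still does. The third, Prox1-GFP, carries Tg(Prox1-EGFP), a transgene that reports Prox1 in epithelial and in some mesenchymal cells. No embryo or litter is named, both sexes were used, and each line is 1 sample of 2 plates (6A and 6B for Nkx2.5, 7A and 7B for Nkx3.2, 8A and 8B for Prox1). Cells are therefore not replicates and the plates stand for the spread within a line. Each line has plates of its own, so plate or batch and line cannot be told apart in any of the 3. The Prox1 libraries also have numbers outside the range of the rest. Where 3 values follow each other without a line being named, they are for the lines in the order in which they were introduced, Nkx2.5 first and Prox1 last.

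A dividing cell copies its DNA in S phase and separates the copies in mitosis, after a second gap called G2. Genes for DNA replication are driven mainly by E2F transcription factors at the start of S phase. Genes for mitosis are switched on later by the MuvB complex with MYBL2 and FOXM1. This complex acts at their promoters through a short DNA element called CHR, beside CCAAT boxes bound by NF-Y. Topoisomerase IIα, made from Top2a, untangles the copied DNA, and Ki-67, made from Mki67, coats mitotic chromosomes. Both transcripts build up through S phase and peak in G2 and mitosis. The mesenchyme around the early pancreatic bud feeds growth signals to the epithelium and expands by division itself.

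Cycling cells made up 21.7% of the mesenchymal cells of the Nkx2.5 line (31 cells beside 23 between the limits and 89 resting, exact 95% binomial interval 15.2 to 29.3%). The share was 17.8% in the Nkx3.2 line (29 cells beside 50 and 84, 12.3 to 24.5%) and 23.6% in the Prox1 line (17 of 72, 14.4 to 35.1%). These intervals overlap, and like all intervals given here they cover counting error only, since reads were counted without molecular identifiers and PCR copies are included. Within each line the B plate held the larger share. The shares were 17.9% on plate 6A and 26.2% on 6B, 14.9% on 7A and 21.1% on 7B, and 16.1% on 8A and 29.3% on 8B. Differences between plates of one line were thus larger than those between lines. In the Prox1 line 38 epithelial cells (35.2% of that tissue, 26.2 to 44.97%) passed the same limits for Top2a and Mki67, with 30.5% on plate 8A and 40.8% on 8B, and the interval overlaps that of the mesenchyme of the same line.

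In single cycling cells Top2a had a lowest, median and highest level of 145.9, 1389.7 and 2822 CPM for Nkx2.5, 139.9, 504 and 2809 CPM for Nkx3.2 and 100.6, 747 and 1863 CPM for Prox1. Mki67 ran over 179.8, 603 and 1789.8 CPM, 59.04, 394 and 1032 CPM and 78.04, 503 and 1226 CPM in the same order. For both genes the Nkx3.2 line had the lowest median. The members nearest to the limits had Top2a at 100.6, 121.9 and 139.9 CPM and Mki67 at 59.04, 62.05 and 63.2 CPM. The cells closest outside had Top2a at 94.6, 84.3 and 80.1 CPM or Mki67 at 49.04, 39.4 and 38.6 CPM. Of the 94 cells between the limits 30 passed the limit for Top2a only, 32 that for Mki67 only and 32 neither.

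**Figure D1:**
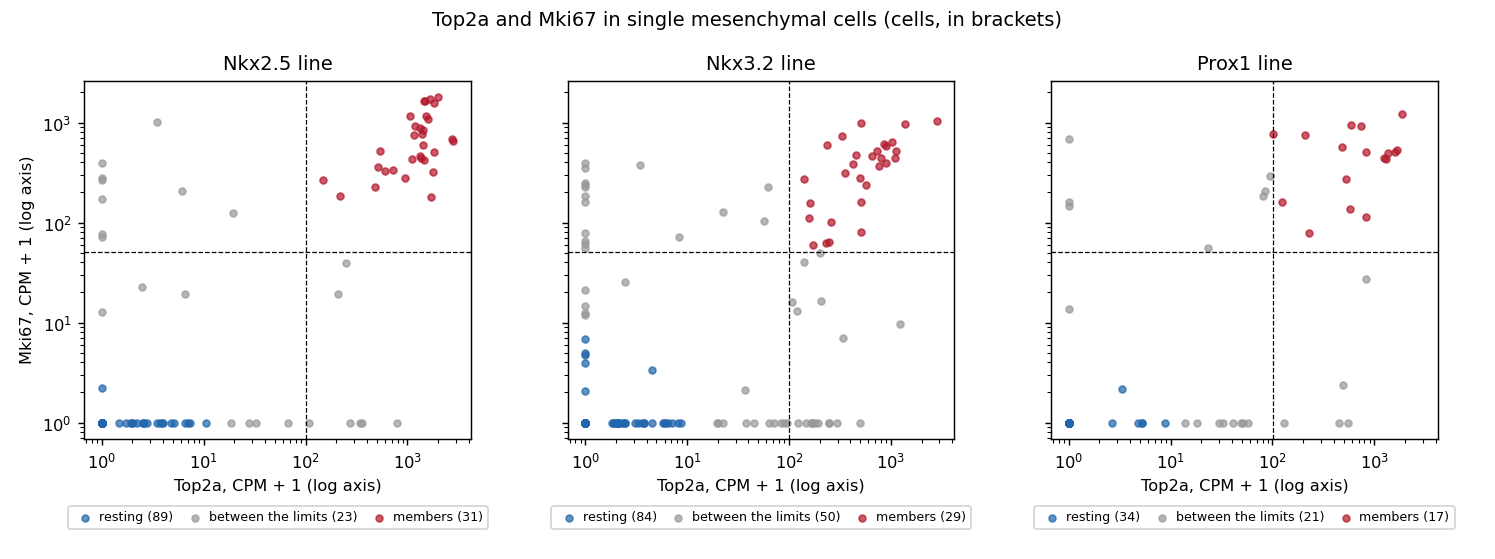
Top2a against Mki67 in each of the 378 mesenchymal cells, in CPM plus 1 on log axes, 1 panel per line, with cycling cells labelled as members and dashed lines at their limits. The 77 cycling cells sit past both limits and the 207 resting cells in the corner under 10 CPM of each gene, with 94 cells between them.

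Marker genes that the choice did not use were read against the name. Aurkb, the kinase of the chromosomal passenger complex, stood at 429.8 against 1.80 CPM in the Nkx2.5 line, 231 against 2.54 CPM in the Nkx3.2 line and 272 against 0.0378 CPM in the Prox1 line. It had a count in 27 of 31, 19 of 29 and 11 of 17 cycling cells, and in 2 of 89, 2 of 84 and 1 of 34 resting cells. Pclaf, a PCNA-binding factor, was at 711 against 40.6 CPM in the Nkx2.5 line, 607 against 70.2 CPM in the Nkx3.2 line and 650.3 against 38.4 CPM in the Prox1 line. Every cycling cell had a count of Pclaf, and so did 62 of 89, 59 of 84 and 16 of 34 resting cells. Among single cells the lowest, median and highest Pclaf levels were 14.4, 660.0 and 1236 CPM, 64.9, 488 and 1496 CPM and 9.53, 597 and 1839 CPM in cycling cells, and 0.00, 1.62 and 354 CPM, 0.00, 15.2 and 584 CPM and 0.00, 0.00 and 263 CPM in resting cells, so the ranges overlapped in all 3 lines.

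Mesenchymal markers (Vim, Col1a1, Col1a2, Col3a1, Pdgfra and Pdgfrb) summed to 3875, 4847 and 3508 CPM in cycling and 4923, 5633 and 5200 CPM in resting cells. The 5 epithelial markers summed to 0.130, 3.95 and 3.87 CPM in cycling cells, with Cdh1 and Pdx1 at 0, and 1 Prox1 cell had 213 CPM of them. Immune markers reached at most 0.967 CPM and erythroid markers 27.3 CPM. Endothelial markers summed to 31.7, 42.02 and 66.97 CPM, nearly all of it Pecam1 with Cdh5 at 0, and 1 cycling cell each in the Nkx3.2 and Prox1 lines held 200 CPM or more. Mesothelial markers summed to 102.1, 108.2 and 72.3 CPM in cycling and 70.9, 83.8 and 21.4 CPM in resting cells, almost all from Wt1, a transcription factor of the mesothelium that mesenchymal cells also express (100.6, 106.4 and 71.2 CPM in the cycling cells and 66.7, 82.4 and 20.7 CPM in the resting cells). Upk3b, one of the genes of the gate, was at 0 in the cycling cells. No doublet caller was run. The passing cells held 224814 to 1512740 counts with a median of 901156, and no 2 cells had identical counts. Thinned to 100000 counts each, cycling cells had a median of 4979, 6102 and 5707 genes above 0 and resting cells 4375, 5788 and 4971, and the part of this difference in the values below was not tested.

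Setting the summed counts of cycling cells against those of resting cells of the same line, a ratio of levels with 1 CPM added to each was computed for 9604 genes with a mean of 10 CPM or more over the 6 levels. In all 3 lines 251 genes were at least 2-fold higher in cycling cells, which is 2.61% of the genes tested, and 48 were at least 2-fold lower (0.50%). Single lines gave 671, 436 and 933 higher genes and 956, 638 and 1294 lower genes. Of the 251 higher genes 56.97%, with Top2a and Mki67 counted in, were in a list of cell cycle genes. Lists of any kind held 356 of the 4647 genes tested at a mean of 50 CPM or more. Of the 251 genes 239 were higher in all 6 plates, and the like share over all genes is not given. The choice of cells used this contrast, so the counts describe it and are no evidence about it. Over all genes the median log2 ratio was -0.09, -0.06 and -0.07. The median given for a list below is taken over its genes, each at the middle one of its 3 lines. Where a resting level is near 0, the ratio depends on the added 1 CPM and is no bound, so levels are given first.

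The leading genes were those of mitosis. Among called genes at a mean of 50 CPM or more with one direction in all 6 plates, the 12 with the largest ratio in their lowest line were Top2a, Mki67, Ccnb1, Aurkb, Ckap2l, Nusap1, Aspm, Hist1h2ap, Kif2c, Hmmr, Plk1 and Pimreg. Hist1h2ap is a replication-dependent histone H2A gene, Pimreg is an APC/C-linked mitotic regulator, and the others beside the 2 selection genes build, drive or steer the mitotic spindle. Ckap2l, a protein of the spindle poles, was at 451 against 1.85 CPM in the Nkx2.5 line, 151.5 against 1.56 CPM in the Nkx3.2 line and 315 against 0.00 CPM in the Prox1 line. Nusap1, which bundles microtubules near chromosomes, was at 316 against 1.88 CPM in the Nkx2.5 line, 146.1 against 1.54 CPM in the Nkx3.2 line and 266 against 0.0378 CPM in the Prox1 line. For Aspm, which focuses spindle poles and keeps progenitors dividing, the levels were 146.96 against 1.53 CPM in the Nkx2.5 line, 70.8 against 0.258 CPM in the Nkx3.2 line and 159.8 against 0.0378 CPM in the Prox1 line. The ratios of these 3 genes lay between 57.04 and 316, and in each of them the Prox1 line had the largest. Hmmr, a spindle assembly factor, had ratios of 83.6, 46.5 and 83.3, and Pimreg of 92.3, 36.8 and 38.8.

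**Figure D2:**
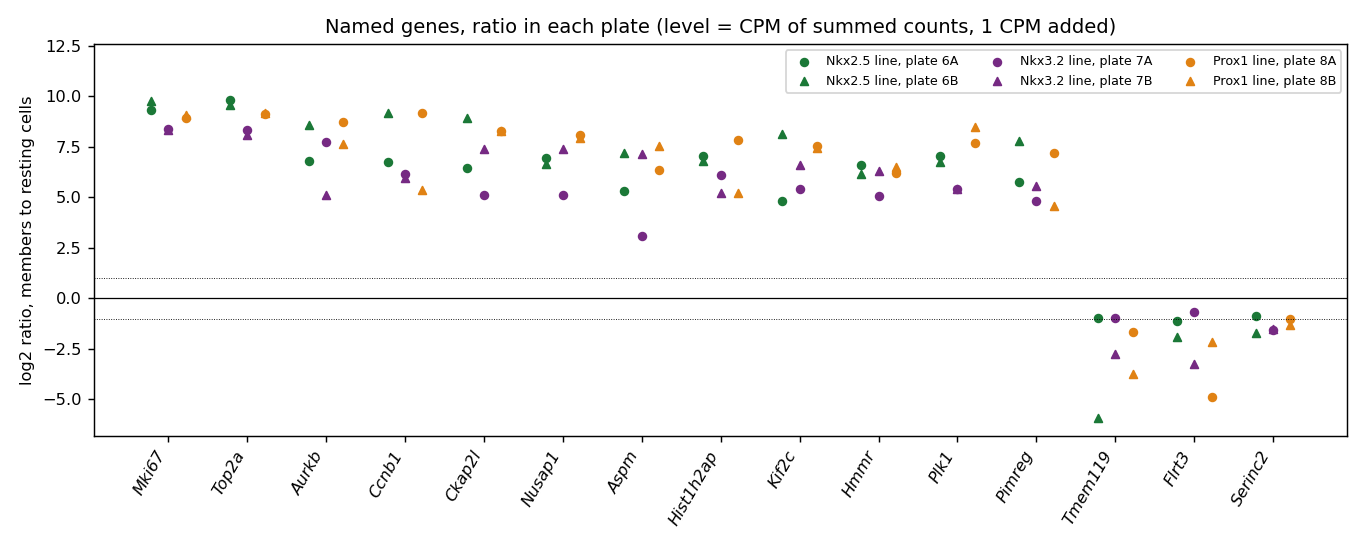
Log2 ratio of the level in cycling cells (members) over that in resting cells, 1 point per plate, for the 12 genes with the largest ratios and for the 3 lower genes that met the same rule. Dotted lines mark a 2-fold difference, and all points of the 12 higher genes lie above 0 and those of Tmem119, Flrt3 and Serinc2 below 0.

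Mitotic cyclins, kinases and their regulators were higher in 18 of 20 tested, with a median log2 ratio of 3.34 beside -0.08 over all genes. This list, called mitotic drivers here, also holds inhibitors of CDK1. Ccnb1, cyclin B1, the cyclin that activates CDK1 at mitotic entry, was at 742 against 3.21 CPM in the Nkx2.5 line, 434 against 5.48 CPM in the Nkx3.2 line and 1002 against 14.5 CPM in the Prox1 line. In single cycling cells its lowest, median and highest levels were 0.00, 594 and 2789 CPM, 0.00, 225 and 2001 CPM and 0.00, 258 and 3767 CPM, and it had a count in 26 of 31, 26 of 29 and 15 of 17 of them. Plk1, the polo-like kinase that acts from mitotic entry to cytokinesis, was at 485 against 3.03 CPM in the Nkx2.5 line, 268 against 5.20 CPM in the Nkx3.2 line and 339.6 against 0.0756 CPM in the Prox1 line. Cyclin B2 (Ccnb2) had ratios of 13.7, 9.38 and 7.27 and Cdk1 itself 8.29, 8.36 and 14.3. Cks1b, a small CDK-binding subunit, had smaller ratios of 2.98, 2.59 and 3.32, over resting levels of 199, 192.5 and 158.9 CPM. Wee1, a kinase that holds CDK1 inactive, and Cdc25a, a phosphatase that opposes it, were the 2 genes of the list that were not called, with ratios of 1.32, 2.84 and 1.55 and of 1.51, 0.842 and 2.32.

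Genes of the kinetochore, the structure that ties a chromosome to the spindle, were higher in 21 of 22 (median log2 ratio 3.27). Hjurp, the chaperone that loads the centromeric histone, had 536, 511 and 409.9 CPM in the cycling cells and 105.7, 117.96 and 123.3 CPM in the resting cells. Cenpa, that histone, had ratios of 8.37, 11.3 and 6.67, the motor protein gene Cenpe 9.34, 10.3 and 12.7 and Spc25 of the NDC80 complex 24.3, 15.96 and 33.6. Only Ska2, a microtubule-coupling subunit, was not called, at 1.57, 1.14 and 1.35. Genes of the spindle checkpoint and of the anaphase-promoting complex (APC/C), the ubiquitin ligase that ends mitosis, were higher in 10 of 13 (median 3.52). Cdc20, its mitotic activator, was at 509 against 33.5 CPM in the Nkx2.5 line, 457 against 12.8 CPM in the Nkx3.2 line and 543 against 18.3 CPM in the Prox1 line. Ube2c, its ubiquitin-conjugating enzyme, had ratios of 46.3, 41.4 and 35.4, and the checkpoint gene Bub3 2.82, 2.14 and 3.05. Fzr1, the activator of APC/C in G1, Mad1l1 and the securin gene Pttg1 were not called, at 3.03, 1.88 and 2.10, at 1.31, 0.863 and 2.46 and at 1.16, 1.19 and 0.439.

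All 29 genes tested for spindle and cytokinesis were higher in every line, the list with the largest median log2 ratio (4.56). Tacc3, which stabilises spindle microtubules, had 585, 386 and 535 CPM in the cycling cells and 38.2, 39.4 and 11.7 CPM in the resting cells. Birc5, the survivin gene of the passenger complex, had ratios of 31.3, 13.4 and 12.2, the cytokinesis kinesin gene Kif20a 31.7, 27.2 and 30.9, and Kif2c, which depolymerises microtubules, 50.1, 57.5 and 198. The smallest ratios of the list were those of Ckap5, a microtubule polymerase, at 2.78, 2.79 and 3.47. Condensin and cohesin genes were split, with 8 of 15 higher (median 2.35). The condensin subunit genes Smc4, with ratios of 10.9, 5.04 and 13.5, and Ncapd2, with 9.10, 8.19 and 11.4, were among those called. Smc3 and Smc1a, which form the cohesin ring, were not, at 1.28, 1.37 and 1.06 and at 1.60, 1.44 and 2.14.

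Replication genes differed far less from resting cells than mitotic genes did. This order follows in part from the choice of cells by Top2a and Mki67, which peak in G2 and mitosis. Of the licensing genes, which load the replicative helicase at origins, 4 of 19 were called (Mcm10, Dbf4, Gmnn and Gins1), and the median log2 ratio was 0.40. Their summed level was 3128, 3222 and 2718 CPM in cycling and 3095, 3076 and 2343 CPM in resting cells. Mcm6, a subunit of the MCM helicase, was at 276 against 658 CPM in the Nkx2.5 line, 435 against 579.9 CPM in the Nkx3.2 line and 359.8 against 516 CPM in the Prox1 line, lower in cycling cells in each line but past the 2-fold limit in the Nkx2.5 line alone. Mcm4 had ratios of 0.490, 0.751 and 0.922, Mcm7 of 1.04, 1.15 and 1.53 and Mcm3 of 0.762, 0.958 and 0.636. Gmnn encodes geminin, which blocks new licensing once S phase has begun, and was at 157.2 against 41.7 CPM in the Nkx2.5 line, 114.6 against 41.2 CPM in the Nkx3.2 line and 98.1 against 28.5 CPM in the Prox1 line.

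Among DNA synthesis genes 7 of 32 were higher (Pclaf, Asf1b, Clspn, Fen1, Pole, Rfc4 and Prim2), with a median of 0.87. Pcna, the sliding clamp of the polymerases, was at 356 against 256 CPM in the Nkx2.5 line, 366 against 284 CPM in the Nkx3.2 line and 303 against 213 CPM in the Prox1 line and was not called. Among genes for making nucleotides 5 of 20 were higher (median 0.58). Rrm2, the cell-cycle-bound subunit of ribonucleotide reductase, was at 332 against 81.6 CPM in the Nkx2.5 line, 409.7 against 99.4 CPM in the Nkx3.2 line and 548 against 43.99 CPM in the Prox1 line, and Tk1, thymidine kinase, had ratios of 7.94, 4.02 and 8.64. Genes of DNA repair and the S phase checkpoint were called in 12 of 18 (median 2.16), including Exo1, an exonuclease, at 6.36, 3.19 and 7.49.

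Clustered histone genes supply the histones for newly copied DNA, and 8 of 12 tested of 70 listed were higher (median 2.30). Their summed level was 3028, 2747 and 2618 CPM in cycling and 150.98, 239 and 239 CPM in resting cells. Most of that sum was Hist1h2ap, at 2509 against 19.5 CPM in the Nkx2.5 line, 2104 against 40.5 CPM in the Nkx3.2 line and 1886 against 23.5 CPM in the Prox1 line. These genes are near-identical copies whose transcripts mostly lack a poly(A) tail, so the split of reads between copies is uncertain. Of chromatin genes 3 of 20 were higher (median 0.80), namely Hmgb2, a DNA-bending protein, at 7.68, 5.15 and 7.29, H2afx, the histone variant that marks DNA breaks, at 9.16, 4.87 and 5.53, and H2afz, another H2A variant, at 2.98, 2.31 and 2.85. Tubulin genes, which encode the subunits of microtubules, were higher in 3 of 9 (Tuba1b 3.34, 2.29 and 2.59, Tubb4b 6.80, 4.67 and 5.58, Tuba1c 15.8, 11.6 and 6.01), and the near-identical Tuba1a, at 1.29, 1.08 and 0.984, was not, again with an uncertain split of reads.

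Genes that act in G1, before a cell commits to division, showed no call. Of the G1 cyclins and their kinases 0 of 8 were higher, with a median log2 ratio of -0.08. Ccnd2, cyclin D2, which couples growth signals to the cycle, was at 573 against 951 CPM in the Nkx2.5 line, 574 against 864 CPM in the Nkx3.2 line and 489 against 806 CPM in the Prox1 line. Its lowest, median and highest levels were 0.00, 527 and 1919 CPM, 5.43, 561 and 1325 CPM and 0.00, 447 and 1223 CPM in cycling cells, and 0.00, 906 and 2557 CPM, 0.00, 771 and 2106 CPM and 0.00, 779.7 and 2252 CPM in resting cells. The medians of cycling cells were the lower ones in each line, and the ranges overlapped. Cdk4, the partner kinase, had ratios of 1.04, 1.002 and 1.09. Ccne2, cyclin E2, which acts at the start of S phase, was at 115.2 against 59.8 CPM in the Nkx2.5 line, 106.5 against 34.4 CPM in the Nkx3.2 line and 120.8 against 6.88 CPM in the Prox1 line, and its ratios of 1.91, 3.04 and 15.5 passed 2-fold in the Nkx3.2 and Prox1 lines.

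Of the E2F and RB genes 3 of 18 were higher (median 0.41), which were E2f7 at 6.02, 4.47 and 48.1 and E2f8 at 7.57, 8.90 and 28.6, 2 repressors made in S phase, and E2f3 at 4.41, 2.13 and 2.52. Myc, a driver of growth, was at 41.5 against 93.2 CPM in the Nkx2.5 line, 59.4 against 94.5 CPM in the Nkx3.2 line and 74.9 against 75.3 CPM in the Prox1 line and was not called. CDK inhibitors and other genes of cell cycle arrest had 0 of 15 higher and none lower (median -0.19). Cdkn1c, the imprinted gene of the CDK inhibitor p57, was at 572 against 807 CPM in the Nkx2.5 line, 806 against 902 CPM in the Nkx3.2 line and 796 against 1487 CPM in the Prox1 line. It had a count in every cycling cell and in 86 of 89, 84 of 84 and 34 of 34 resting cells. Single-cell levels ran over 57.99, 495 and 3205 CPM, 159.8, 728 and 2103 CPM and 197, 707 and 1609 CPM (lowest, median and highest) in cycling cells, so p57 transcript was present in cells with a high level of mitotic transcripts. Sesn3, a stress-response gene, had ratios of 0.537, 0.624 and 0.532.

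**Figure D3:**
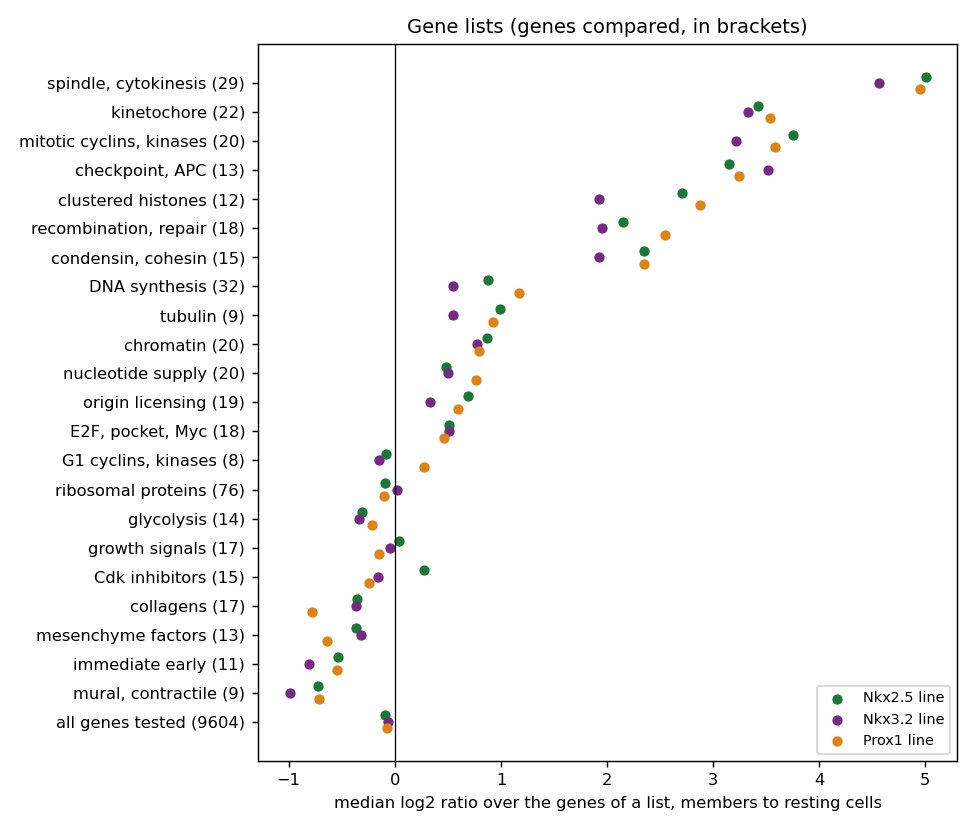
Median log2 ratio of cycling cells (members) over resting cells across the genes of each list, 1 point per line, with the number of genes tested in brackets. The spindle, kinetochore, mitotic driver and checkpoint lists lie above 3 in every line, and the collagen, mesenchyme factor, immediate early and mural lists below 0 in every line.

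Promoters of the higher genes were searched for the 3 elements named above. RefSeq promoters on GRCm38.p6, each of 250 bases before and 50 bases after the transcription start, were found for 203 of the 251 higher genes (80.9%) and for 7635 of 9400 protein-coding genes tested (81.2%). Both strands were searched. A CHR was counted as TTTGAA or TTCGAA, an NF-Y box as CCAAT, and an E2F word as any of TTTCCCGC or TTTGGCGC or TTTCGCGC or TTTGCCGC or TTCCCGCC or TTGGCGCC, where the last pair overlaps the others by a shift of 1 base and a word can overlap a CCAAT. The stretches below are the 250 bases before the start of 4 mitotic genes and of Mcm6, the licensing gene with the highest mean level, all on the minus strand and written 5′ to 3′, with the matches in capitals. They are chr7:135716380-135716629 for Mki67, chr11:99024190-99024439 for Top2a, chr13:100786487-100786736 for Ccnb1, chr9:70421555-70421804 for Ccnb2 and chr1:128359706-128359955 for Mcm6.
Mki67: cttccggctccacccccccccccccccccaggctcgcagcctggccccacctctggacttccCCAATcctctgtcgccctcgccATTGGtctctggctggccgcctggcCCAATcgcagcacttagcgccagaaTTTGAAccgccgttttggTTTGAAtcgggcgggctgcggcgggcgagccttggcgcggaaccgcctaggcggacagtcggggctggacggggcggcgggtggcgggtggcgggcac
Top2a: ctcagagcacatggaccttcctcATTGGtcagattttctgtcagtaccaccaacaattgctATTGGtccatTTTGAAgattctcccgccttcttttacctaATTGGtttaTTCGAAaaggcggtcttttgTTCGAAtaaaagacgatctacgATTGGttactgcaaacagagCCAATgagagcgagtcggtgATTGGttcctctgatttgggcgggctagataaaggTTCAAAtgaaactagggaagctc
Ccnb1: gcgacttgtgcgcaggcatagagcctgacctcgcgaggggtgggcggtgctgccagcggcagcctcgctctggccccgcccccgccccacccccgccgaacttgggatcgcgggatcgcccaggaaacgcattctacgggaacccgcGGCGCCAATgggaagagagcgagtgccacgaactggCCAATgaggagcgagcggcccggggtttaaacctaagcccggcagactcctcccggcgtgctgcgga
Ccnb2: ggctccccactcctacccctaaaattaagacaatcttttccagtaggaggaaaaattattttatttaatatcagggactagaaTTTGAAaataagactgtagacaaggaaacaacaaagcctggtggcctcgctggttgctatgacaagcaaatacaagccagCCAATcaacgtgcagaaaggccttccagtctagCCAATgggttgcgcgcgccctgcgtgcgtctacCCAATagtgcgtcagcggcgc
Mcm6: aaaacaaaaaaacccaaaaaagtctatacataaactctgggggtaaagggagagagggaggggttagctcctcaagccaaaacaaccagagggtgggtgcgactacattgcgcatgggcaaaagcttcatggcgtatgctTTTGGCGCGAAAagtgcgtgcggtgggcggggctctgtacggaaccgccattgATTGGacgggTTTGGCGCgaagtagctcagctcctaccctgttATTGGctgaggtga
Mki67 holds a pair of TTTGAA words, the nearer of which begins 98 bases before the start, behind 3 CCAAT boxes. Top2a holds 4 CHR words, the nearest 23 bases before the start, and 6 CCAAT boxes. Ccnb2 has 1 CHR in this stretch and another in the 50 bases after the start. Its CCAAT boxes begin 87, 54 and 21 bases before the start, at even distances. Ccnb1 has CCAAT boxes at 99 and 67 and no CHR in this window, and its only E2F word overlaps the first box. Mcm6 holds no CHR but 3 E2F words, of which the first pair overlap and the nearest begins at 47.

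Over the higher genes a CHR was found in 52.2% of the 203 promoters, against 14.1% of the protein-coding genes tested and 19.4% of all 27025 promoters of that length. CCAAT was found in 70.4%, against 40.4% and 37.9%. An E2F word was found in 31 (15.3%), against 8.99% and 4.53%, and CHR together with CCAAT in 80 (39.4%), against 6.23% of the protein-coding genes tested. The lists differed in which element they held. Of 27 spindle and cytokinesis promoters 81.5% had a CHR and 7.41% an E2F word, while of 28 DNA synthesis promoters 14.3% had a CHR and 46.4% an E2F word. Nucleotide genes (19 promoters) had 5.26% and 15.8%, and kinetochore genes (19 promoters) 52.6% and 26.3%. Fewer than 80% of the licensing, repair, mitotic driver and lower genes had a promoter, and no percentages are given for them. Of the 14 licensing promoters found, 6 held a CHR and 8 an E2F word. Mcm6, which has no CHR in its stretch, therefore does not stand for that list. A match of these letters is a description of sequence, and binding was not measured in these cells.

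**Figure D4:**
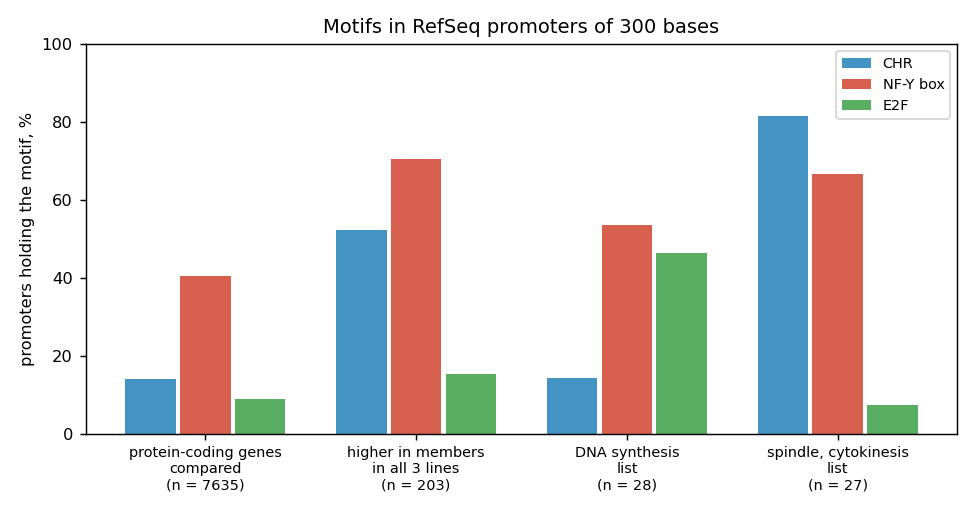
Percent of promoters with a CHR, a CCAAT (NF-Y) box and an E2F word in the protein-coding genes tested, in the genes higher in cycling cells (members) and in the DNA synthesis and spindle lists. Of these 4 sets CHR is most frequent among spindle and cytokinesis genes (81.5%) and E2F words among DNA synthesis genes (46.4%).

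Cycling cells differed among themselves along S phase and G2/M. For each cell the CPM of 43 S phase genes and of 52 G2/M genes were summed, and neither list holds Top2a or Mki67. The S sum had a median of 7980, 5905 and 7175 CPM in cycling cells and 4808, 4188 and 3828 CPM in resting cells. The G2/M sum had a median of 15794, 10741 and 12938 CPM in cycling cells and 2045, 1929 and 1905 CPM in resting cells. The sums thus differed between the classes by more in G2/M than in S, which follows in part from the choice by Top2a and Mki67. No resting cell reached the median G2/M sum of the cycling cells of its line, while 15 of 89, 28 of 84 and 2 of 34 reached their median S sum. The share of G2/M in both sums ran from 22.1 to 93.9% over the 77 cycling cells, with medians of 67.5, 67.1 and 69.3%.

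Within a line the 2 sums ran against each other over cycling cells, with Spearman's rho of -0.90 (n = 31), -0.61 (n = 29) and -0.46 (n = 17). Cells of a line share a library preparation, and the sums share the total of their cell. Pairs of mitotic genes differed in how closely they ran together. Spearman coefficients were 0.79, 0.63 and 0.55 for Ccnb1 and Plk1 and 0.69, 0.74 and 0.69 for Ccnb1 and Cenpa, but 0.44, 0.17 and 0.32 for Ccnb1 and Aurkb and 0.24, 0.55 and 0.32 for Ccnb1 and the cyclin A2 gene Ccna2. Among replication genes Pclaf and Rrm2 had rho of 0.49, 0.78 and 0.86, and Mcm6 and Mcm5 of -0.0085, 0.60 and 0.57. Ccne2 and Ccnb1, which act at opposite ends of the interval, had rho of -0.63, -0.53 and -0.57. Top2a and Mki67 had rho of 0.51, 0.64 and 0.17. The G2/M share and the counts of a cell had rho of -0.12, -0.30 and 0.44, with no common sign.

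**Figure D5:**
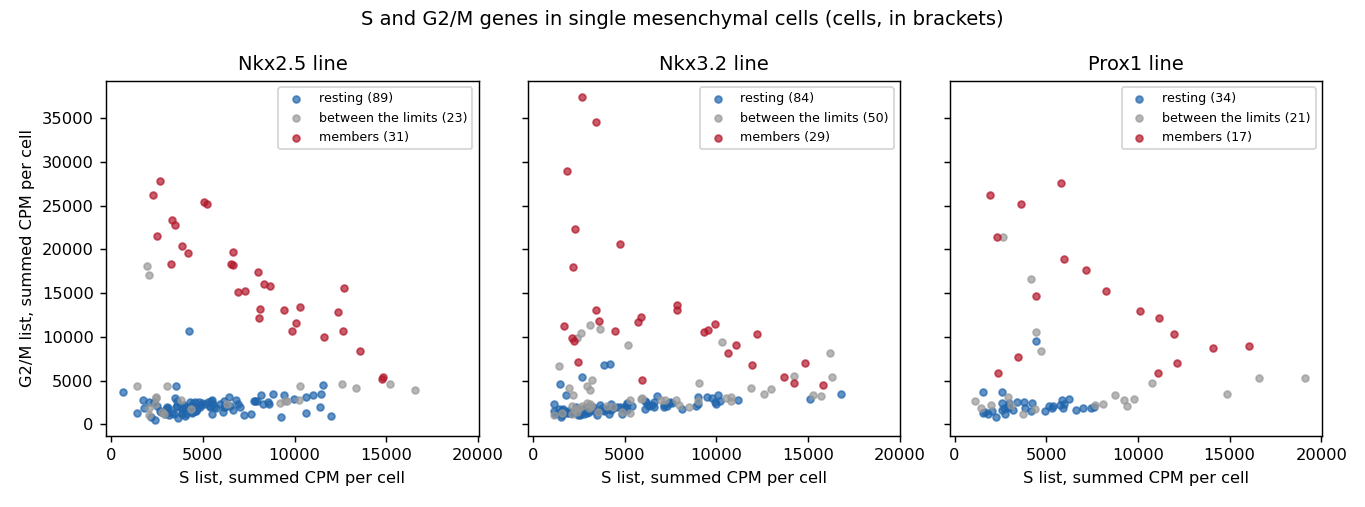
Summed CPM of S phase genes against that of G2/M genes in each mesenchymal cell, 1 panel per line, coloured by class with cycling cells labelled as members. Cycling cells spread from high S and lower G2/M sums to low S and high G2/M sums, and nearly all resting cells lie along the bottom with G2/M medians of 2045, 1929 and 1905 CPM.

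Splitting the cycling cells of each line at the median G2/M share (67.5, 67.1 and 69.3%) gave a lower group of 16, 15 and 9 cells, nearer to S phase, and an upper group of 15, 14 and 8 cells, with 5, 5 and 4 cells within 5 percentage points of the split. Of 9507 tested genes outside both score lists 0.999% were at least 2-fold higher and 1.67% at least 2-fold lower in the upper group in all 3 lines. The groups are ranges of one measure, so all genes are given as a description, and those named were picked with their values in view. Tuba1c, an α-tubulin gene, had the largest ratios of upper over lower group outside the lists among genes at a mean of 50 CPM or more, with 5.62, 7.33 and 2.07 CPM in the lower groups and 195, 259.7 and 139.8 CPM in the upper groups. Ccnb1 was at 298, 170.4 and 290.5 CPM in the lower groups and 1297, 742 and 1607 CPM in the upper groups. Knstrn and Kpna2, a spindle adaptor and an importin α, were also among the 8 highest of these, beside Gpx3, a secreted glutathione peroxidase with no place in the cycle, at ratios of 3.81, 3.58 and 3.59. In the lower groups stood Lig1, the ligase that joins Okazaki fragments, at ratios of 0.190, 0.120 and 0.102, and Ccne1, cyclin E1, at 0.210, 0.109 and 0.130.

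Genes of replication and of late mitosis lay apart between these groups. Mcm6 was at 380.2, 694 and 662 CPM in the lower groups and 145.3, 133.04 and 103.3 CPM in the upper groups, and the 3 lower-group levels stand beside 658, 579.9 and 516 CPM in resting cells. Hist1h2ap had 3394, 3415 and 3055 CPM in the lower groups and 1402, 577 and 895 CPM in the upper groups. Cdc20 was at 170.6, 74.7 and 87.8 CPM in the lower groups and 932, 903 and 929.6 CPM in the upper groups. Aurkb, by contrast, had ratios of 1.56, 0.828 and 1.67 and Cdk1 of 1.66, 1.23 and 1.45, nearer to 1 than those of the genes before them. Mcm6, Cdc20, Aurkb and Cdk1 belong to the score lists that formed the groups, and their ratios follow from it.

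Cells between the limits were of differing kinds. The 30 cells past the Top2a limit alone had a median S sum of 9229, 9711 and 4167 CPM (n = 7, 18 and 5), beside 7980, 5905 and 7175 CPM in cycling cells, higher in the first pair of lines and lower in the Prox1 line. Their median G2/M sum was 4377, 3344 and 5273 CPM, under that of cycling cells in each line. Their median level of clustered histones was 299.7 CPM against 2970.1 CPM. In those of the Nkx2.5 line and of the Nkx3.2 line Mcm6 had medians of 471 and 836 CPM in such cells against 233 and 237 CPM in cycling cells, while the 5 such cells of the Prox1 line had 28.6 CPM. The 32 cells past the Mki67 limit alone (9, 16 and 7) had a median S sum of 2441, 2882 and 4415 CPM, beside 4808, 4188 and 3828 CPM in resting cells, lower in the first pair of lines and higher in the Prox1 line. Their median level of Rrm2 was 0.00, 0.00 and 133.7 CPM and that of Ccnb1 0.00, 7.23 and 2.504 CPM.

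Resting cells, defined by low Top2a and Mki67 alone, also held cells with S sums as high as those of cycling cells. The 15, 28 and 2 resting cells at or over the median S sum of cycling cells had median Mcm6 levels of 929, 870 and 619 CPM and median Ccne2 levels of 141.2, 61.1 and 53.96 CPM. Their clustered histones had medians of 115.9, 186.9 and 191.6 CPM, far under the 2999, 1175 and 2465 CPM of cycling cells, and Ccnb1 was at 0 in the median cell of each line. Their Mcm6 medians stand beside 233, 237 and 234 CPM in cycling cells. Mcm6 and Ccne2 are part of the S sum that picked these cells, so their levels follow in part from that choice, and the Prox1 values rest on 2 cells.

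Mesenchymal genes were mostly at like or lower levels in cycling cells. None of the 17 collagen genes tested was called in either direction (median log2 ratio -0.41). Col1a1 was at 1033 against 1319.7 CPM in the Nkx2.5 line, 1579 against 2034 CPM in the Nkx3.2 line and 1046 against 1682 CPM in the Prox1 line, and Col1a2 had ratios of 0.663, 0.643 and 0.754. Transcription factors of the gut mesenchyme had 0 of 13 higher and none lower (median -0.43). Among them Meis1, a homeobox gene, had ratios of 0.884, 0.765 and 0.702 and Osr1, a zinc finger gene of intermediate and splanchnic mesoderm, 0.753, 0.298 and 0.437. Immediate early genes, which answer stress and tissue handling within minutes, had 0 of 11 called (median -0.62), with Jun at 0.447, 0.863 and 0.530 and Fos at 0.689, 1.33 and 0.482. Glycolysis genes had 0 of 14 (median -0.34) and ribosomal protein genes 0 of 76 (median -0.05).

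The study divides the pancreatic mesenchyme into classes and drew them partly from these cells, so the lists are not independent of the data. Its classes include proliferative clusters marked by Mki67 and Top2a, and the cycling cells were not matched to those clusters. Gap43 and Syt6 are among the genes of one further class, and Igf1, Flrt3 and Sulf1 among those of another. The study also names Igf1 for an additional class. Cycling cells held genes of the Gap43 group and of the Flrt3 group. Of the first group none of 5 was called (median -0.15). Gap43, a growth cone protein, was at 10 CPM or more in 27 of 31, 29 of 29 and 17 of 17 cycling cells and 80 of 89, 66 of 84 and 27 of 34 resting cells. Of 7 genes tested in a list for the second group Flrt3 and Sulf1 were lower in every line and the others were not called. That list also held Slit2, which the study gives to the first group. Flrt3, a cell adhesion protein and FGF coreceptor, was at 55.4 against 155.5 CPM in the Nkx2.5 line, 36.9 against 98.7 CPM in the Nkx3.2 line and 26.5 against 255 CPM in the Prox1 line. On the A plates its ratios were 0.455, 0.628 and 0.0339, so the call was not met there. It was at 10 CPM or more in 11 of 31, 8 of 29 and 4 of 17 cycling cells and 30 of 89, 27 of 84 and 22 of 34 resting cells. The share of cells with Flrt3 was thus much smaller among cycling cells in the Prox1 line, and in the Nkx2.5 line the shares were close while the highest cell held 523 against 1818 CPM. Sulf1, which trims sulfate from heparan sulfate, was at 6.10 against 51.4 CPM in the Nkx2.5 line, 10.3 against 74.8 CPM in the Nkx3.2 line and 13.1 against 108.9 CPM in the Prox1 line. Igf1, the growth factor, was at 361 against 394 CPM in the Nkx2.5 line, 39.7 against 104.4 CPM in the Nkx3.2 line and 285 against 1133 CPM in the Prox1 line and at 10 CPM or more in 14 of 31, 4 of 29 and 8 of 17 cycling and 43 of 89, 18 of 84 and 26 of 34 resting cells.

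Genes of the splenopancreatic mesenchyme had 0 of 6 called (median 0.14), Nkx3-2 among them at 28.5, 22.8 and 21.3 CPM in the cycling cells and 26.2, 21.01 and 24.4 CPM in the resting cells. Mural cell genes had 0 of 9 (median -0.71). Rgs5, of pericytes, had ratios of 0.507, 0.994 and 0.720, and Des, the muscle intermediate filament gene, 0.531, 0.503 and 0.443. Acta2, smooth muscle actin, was at 39.3 against 14.7 CPM in the Nkx2.5 line, 8.79 against 124.3 CPM in the Nkx3.2 line and 0.00 against 192.2 CPM in the Prox1 line, set by few cells, since the highest resting cell of the Nkx3.2 line held 7194 CPM. Imprinted growth genes had 0 of 7 called (median -0.23), with every ratio of Mest, Grb10 and Peg3 under 1, at 0.851, 0.845 and 0.857, at 0.790, 0.774 and 0.769 and at 0.555, 0.776 and 0.775. Receptors, ligands and targets of growth signals had 0 of 17 called (median -0.09). Pdgfra, the PDGF receptor of mesenchyme, had ratios of 0.910, 0.970 and 1.02 and Igf2 0.873, 0.884 and 0.719.

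Of the 48 lower genes 46 were in no list and 38 were lower in all 6 plates, but only 4 reached a mean of 50 CPM. Most genes are in no list, since the lists held 356 of the 4647 genes tested at 50 CPM or more. The share of all genes lower in all 6 plates is not given. Tmem119, a membrane protein of bone-forming and other mesenchymal cells, was at 12.1 against 57.1 CPM in the Nkx2.5 line, 32.1 against 104.1 CPM in the Nkx3.2 line and 14.1 against 93.9 CPM in the Prox1 line. It had a count in 4 of 31, 8 of 29 and 2 of 17 cycling cells and in 22 of 89, 39 of 84 and 15 of 34 resting cells. Serinc2, a serine incorporator family gene, was at 29.02 against 69.3 CPM in the Nkx2.5 line, 30.4 against 90.9 CPM in the Nkx3.2 line and 47.2 against 108.03 CPM in the Prox1 line. Celf2, an RNA-binding protein gene, was the fourth, and on 1 plate it was slightly higher in cycling cells (ratio 1.07). Few of the lower genes held between plates. Calls on the A plates alone gave 1.37% of genes and calls on the B plates alone 1.07%, and 5 genes were in both (3.82% of the first set and 4.90% of the second). The higher genes numbered 261 and 237 in the same 2 sets, and those in both made up 71.6% and 78.9% of them. The 5 shared genes were Echdc2, Klf14, Slc4a3, Sulf1 and Tmem63b, so Tmem119, Flrt3 and Serinc2 were not called on both sets.

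The other higher genes stood outside every list, and those named here were picked with their values in view. Kpna2, an importin α that carries cargo into the nucleus, was at 1422 against 81.3 CPM in the Nkx2.5 line, 561 against 61.4 CPM in the Nkx3.2 line and 973 against 50.02 CPM in the Prox1 line. Arl6ip1, a shaping protein of the endoplasmic reticulum, was at 622 against 121.3 CPM in the Nkx2.5 line, 417 against 102.9 CPM in the Nkx3.2 line and 733 against 125.9 CPM in the Prox1 line. Spag5 and Knstrn, which act together at the spindle, had ratios of 28.3, 26.4 and 24.3 and of 40.6, 11.2 and 19.6. Neil3, a DNA glycosylase, had ratios of 81.1, 23.1 and 29.6, and the mitotic kinase genes Pbk and Melk 31.8, 19.3 and 262 and 116.6, 11.3 and 67.8.

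The Prox1 line also allowed a comparison with epithelium of the same plates. There 38 epithelial cells past the limits were set against 50 resting epithelial cells, with both genes under 10 CPM. Epithelial cells between these limits were left out. Mitotic lists had like median log2 ratios in mesenchyme and epithelium, at 4.95 and 4.39 for spindle and cytokinesis, 3.59 and 3.64 for mitotic drivers and 3.54 and 3.46 for the kinetochore. Ccnb1 was at 1002 against 14.5 CPM in mesenchyme and 1000.2 against 15.1 CPM in epithelium. Licensing had 0.59 and 0.49. Clustered histones had 2.87 and 1.68, and collagens -0.78 and 0.29. Collagens summed to 3464 against 5696 CPM in mesenchyme but only 514 against 405 CPM in epithelium. Some were near 0 in epithelium, such as Col6a1 at 0.00 against 5.43 CPM, where the ratio depends on the added 1 CPM. Cdkn1c was at 796 against 1487 CPM in mesenchyme and 197 against 234 CPM in epithelium, and Cdkn1a, the gene of the CDK inhibitor p21, at 1.89 against 10.7 CPM and 89.8 against 303 CPM. For Ccnd1, cyclin D1, the levels were 46.2 against 34.01 CPM and 257 against 143.6 CPM. The genes of this paragraph were picked with their values in view. With 1 sample of each tissue these differences have no replicate check.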

How the data were processed

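Cells were grouped by line from the genotype in the labels and by plate and well from the sample titles. Count columns were matched to cells by the number in the library name. Per the labels, the authors trimmed reads with Trim Galore 0.6.5, quantified them with kallisto on GRCm38, summed transcripts to genes and deposited the sums as estimated counts, 1 column per cell and not scaled. Of the values above 0, 36.1% were not whole. The annotation release is not given in the sources used here. Symbols came from GENCODE M21 and left 0.589% of counts without one. Passing cells held at most 11.1% mitochondrial counts.

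Counts were summed over the cells of a class in each line and divided by their total, giving CPM. A gene was called when (cycling + 1)/(resting + 1) CPM was at least 2 or at most 0.5 in all 3 lines, among genes at a mean of 10 CPM or more. Cells are not replicates, so no test, p-value or SE was computed, and differential tests for counts were not run. Intervals are exact. Alternatives changed the cell limits, the added CPM, the filter, the plates and the depth. The cell classes and gene lists were chosen with earlier results of these data known. Named genes were the genes of the rule, in each list up to 4 with the highest mean level and up to 3 with the largest or smallest ratio, and over all genes the 12 largest and smallest ratios among called genes at 50 CPM or more with one direction in 6 plates. Genes outside that rule were picked with their values in view. Some genes that were tested are not reported here. Python 3.11.15 with numpy 2.4.6, pandas 2.3.3 and scipy 1.17.1 was used.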

Additional observations from a re-analysis of the deposited data

How the results depend on the processing

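All 24 alternative values for the share of cycling cells (stricter cell filters, a limit on mitochondrial counts, looser and stricter limits for Top2a and Mki67, limits on markers of other cell types, thinning to 100000 counts, and each plate alone) gave values within the interval of their line. Of the 26 alternative counts of called genes 20 were within 1.5 times the reported one. The count of higher genes ran from 211 to 297, except that requiring a mean of 50 CPM left 2.91% of the genes then tested. The count of lower genes moved more. Lower genes were 1.37% of those tested on the A plates, 1.07% on the B plates, 0.229% with 5 CPM added in place of 1 (22 genes), 0.576% with no filter on low levels (207 genes) and 0.0861% where a mean of 50 CPM was required (4 genes). With every cell thinned to 100000 counts 253 genes were higher, 235 of them among the 251 (93.6% of those), and 47 were lower, 15 of them among the 48 (31.3%). Each line is 1 sample, and only 17 cycling cells came from the Prox1 line, where single cells weigh most. Resting cells were defined by low Top2a and Mki67 and include cells with S phase transcripts. Cycling and resting cells were paired by line and plate. No paired test was run, since the cells were chosen by values of the same contrast. Each ratio was formed within a line or a plate.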

Other observations

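Some genes that were not called between cycling and resting cells differed along the range of the cycling cells, and all were picked with their values in view. Gpx3, a secreted glutathione peroxidase, had 29.3, 39.9 and 43.1 CPM in the cycling cells nearer to S phase and 114.4, 145.3 and 157.2 CPM in those nearer to mitosis (Nkx2.5, Nkx3.2 and Prox1 lines). Snrk, a kinase of the SNF1 family, was also among the 8 genes outside the score lists, at a mean of 50 CPM or more, with the largest ratios between these groups, and Igfbp5, which binds IGF ligands, was among the 8 with the smallest. With 1 sample per line these values have no replicate check.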
